A study of Mus musculus with 4 samples.

Results

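The hypoxic tumour nuclei were the 548 nuclei, of 3651 gated tumour nuclei and 5859 nuclei in all, with the highest RNA score for genes of the low-oxygen response. They were taken from CT26 tumours. CT26, a BALB/c mouse line from a colon carcinoma, was injected under the skin of the right flank of BALB/c mice, 1000000 cells each. Tumours were taken at day 14. The injected cells were either unedited at Sun1 (Sun1_WT, genotype given as wildtype) or knocked out for it (Sun1_KO). SUN1 is a protein of the inner nuclear membrane that links the lamina to the cytoskeleton. The age and sex of the mice, the number of tumours in a library, the Sun1 allele and whether the knockout line is 1 clone were not stated in the labels. RNA and open chromatin were read from the same nuclei with 1 expression library and 1 accessibility library for each genotype. There was no replicate, so no difference below has a test. Intervals are 95% and cover counting error only.

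Nuclei entered with at least 500 unique molecular identifiers (UMIs, counted RNA molecules), at least 300 genes, and no more than 20% of UMIs from mitochondrial genes. The tumour gate asked for at least 5 Hmga2 UMIs per 10000 and at most 1 UMI of Ptprc, which encodes the leukocyte antigen CD45. The score was the sum of Ndrg1, Ero1l, P4ha2, Bnip3, Ankrd37, Slc2a1 and Plod2 UMIs per 10000, and the top 15% over both libraries pooled were kept. This gave 429 of 2308 gated Sun1_WT nuclei and 119 of 1343 gated Sun1_KO nuclei. The remaining 1879 and 1224 gated nuclei are called the other tumour nuclei. Since RNA chose the members, all RNA differences between hypoxic and other nuclei are descriptions. Accessibility was not used by the rule.

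Cells sense oxygen mainly through the hypoxia-inducible factors. The alpha subunits, HIF1A and EPAS1, are hydroxylated by prolyl hydroxylases of the EGLN family when oxygen is present, bound by the VHL ubiquitin ligase and degraded. In low oxygen they persist, pair with ARNT and bind a short core sequence, A or G followed by CGTG, near genes for glucose uptake, glycolysis, pH control, blood vessel growth, mitophagy and collagen hydroxylation. In solid tumours this response marks tissue far from blood vessels.

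Promoter sequences are shown for the 5 score genes found in the promoter reference used, because the core sequence can be seen in them. Ndrg1 and Plod2 had no entry there. Each line gives the 250 bases before the RefSeq start on the gene's strand (RefSeq, GRCm38.p6, the build named mm10 in the submitters' processing notes). Capitals mark ACGTG on either strand, which reads CACGT where the match is on the opposite strand. The stretches lie on chr14:45318573-45318822 (Ero1l, minus strand), chr11:54100674-54100923 (P4ha2, plus strand), chr7:138909507-138909756 (Bnip3, minus strand), chr8:45999851-46000100 (Ankrd37, minus strand) and chr4:119108495-119108744 (Slc2a1, plus strand). Car9, on chr4:43506776-43507025 (plus strand), is added as a hypoxia gene outside the score.
Ero1l: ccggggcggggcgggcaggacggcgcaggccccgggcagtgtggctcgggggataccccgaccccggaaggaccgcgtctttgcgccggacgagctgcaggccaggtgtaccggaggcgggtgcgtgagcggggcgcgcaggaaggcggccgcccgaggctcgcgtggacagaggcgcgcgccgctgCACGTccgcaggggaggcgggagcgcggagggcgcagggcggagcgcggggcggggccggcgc
P4ha2: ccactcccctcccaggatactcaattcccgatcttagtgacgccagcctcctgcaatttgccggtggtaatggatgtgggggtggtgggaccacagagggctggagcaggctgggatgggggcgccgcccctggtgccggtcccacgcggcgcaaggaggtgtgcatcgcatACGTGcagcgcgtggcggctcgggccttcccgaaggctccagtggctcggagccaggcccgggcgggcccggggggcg
Bnip3: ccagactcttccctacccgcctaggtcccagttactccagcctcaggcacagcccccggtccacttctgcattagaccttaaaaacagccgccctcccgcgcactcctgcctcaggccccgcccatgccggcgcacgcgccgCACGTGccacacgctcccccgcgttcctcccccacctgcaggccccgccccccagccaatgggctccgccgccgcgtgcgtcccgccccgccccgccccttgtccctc
Ankrd37: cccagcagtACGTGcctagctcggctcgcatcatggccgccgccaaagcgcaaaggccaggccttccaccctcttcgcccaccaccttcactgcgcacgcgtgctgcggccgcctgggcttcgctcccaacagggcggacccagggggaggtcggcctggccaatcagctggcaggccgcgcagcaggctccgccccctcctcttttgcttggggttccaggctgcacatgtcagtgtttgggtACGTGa
Slc2a1: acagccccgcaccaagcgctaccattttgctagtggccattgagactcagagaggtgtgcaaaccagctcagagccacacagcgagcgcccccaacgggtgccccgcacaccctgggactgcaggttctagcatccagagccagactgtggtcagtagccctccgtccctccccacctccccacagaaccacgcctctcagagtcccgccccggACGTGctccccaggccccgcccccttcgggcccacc
Car9: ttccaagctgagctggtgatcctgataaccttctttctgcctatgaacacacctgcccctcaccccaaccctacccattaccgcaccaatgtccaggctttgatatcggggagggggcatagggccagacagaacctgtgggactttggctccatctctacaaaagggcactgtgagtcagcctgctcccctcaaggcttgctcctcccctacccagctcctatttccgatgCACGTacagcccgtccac

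Counted over 300 bases, from 250 before to 50 after the start, ACGTG on either strand was present in 5 of the 5 score gene promoters matched in the table. It was present in 19.6% of all 32851 promoters of that length and in 26.8% of the promoters of genes compared here. The first base of the match lay 63 bases before the start in Ero1l, 36 in Slc2a1, 78 in P4ha2 and 108 in Bnip3, where CACGTG holds the match on both strands. Ankrd37 had matches 241 and 6 bases before the start, and P4ha2 had one more at 10 bases after it. A match describes the letters and shows no binding.

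Depth was similar in the arms: the median nucleus held 15969 UMIs in hypoxic and 17350 in other Sun1_WT nuclei, and 13816 and 16266.5 in Sun1_KO. Mitochondrial genes took 6.37% and 7.15% of UMIs in Sun1_WT and 10.7% and 11.3% in Sun1_KO, so they differed by library more than by arm. Their part in the differences between genotypes was not tested. The libraries shared 12 barcodes, of which 2 hypoxic Sun1_WT nuclei and no hypoxic Sun1_KO nucleus carried one. Sun1 itself stood at 120 counts per 1000000 (CPM, of the total without mitochondrial genes) in hypoxic and 102 in other Sun1_WT nuclei, and at 87.8 and 62.7 CPM in Sun1_KO. UMIs of the targeted gene were thus lower but present in the Sun1_KO library, and which part of Sun1 was altered was not stated, so this checks the label only in part.

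The gate and the label were checked against markers. Hmga2, which the gate used, stood at 2953 CPM in hypoxic and 3003 CPM in other Sun1_WT nuclei and at 3979 and 4559 CPM in Sun1_KO. The 31 leukocyte markers summed to 167 and 222 CPM in Sun1_WT and to 257 and 226 CPM in Sun1_KO, with Cd8a, Klrb1c, Csf3r and Ms4a1 at 0 in hypoxic Sun1_KO nuclei. The 12 macrophage markers summed to 129.6 and 111 CPM in Sun1_WT and to 166 and 155 CPM in Sun1_KO. The 10 neutrophil markers reached 8.20 to 14.5 CPM and the 12 endothelial markers 27.0 to 44.5 CPM over the 4 arms, with Kdr at 0 in the hypoxic nuclei of both libraries. The 13 fibroblast markers, which hold collagen genes that CT26 nuclei also express, summed to 1685 and 2262 CPM in Sun1_WT and to 2366 and 2075 CPM in Sun1_KO. No doublet caller was run, and the part of mixed nuclei in the results was not tested.

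All 7 score genes were higher in the hypoxic nuclei of both libraries, as the rule requires. Ero1l, an oxidase that makes disulfide bonds in the endoplasmic reticulum, stood at 1386 CPM in hypoxic and 201 CPM in other Sun1_WT nuclei, and at 1297 and 149 CPM in Sun1_KO. It gave 46.7% of the score's UMIs in hypoxic Sun1_WT nuclei and 45.5% in Sun1_KO, so it weighed most in the choice. Ndrg1, a differentiation-related gene induced by low oxygen, stood at 609 against 105.5 CPM in Sun1_WT and 433 against 66.3 CPM in Sun1_KO. Slc2a1, the glucose transporter GLUT1, stood at 213 against 45.3 CPM and 217 against 36.6 CPM.

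Of the score genes that act on mitochondria or matrix, Bnip3, a receptor for mitophagy, stood at 321 against 56.2 CPM in Sun1_WT and 363 against 34.05 CPM in Sun1_KO. P4ha2, a catalytic subunit of collagen prolyl hydroxylase, stood at 115 against 17.5 CPM and 129.5 against 15.4 CPM. Plod2, a collagen lysyl hydroxylase, stood at 257 against 58.2 CPM and 359 against 62.45 CPM. Ankrd37, an ankyrin-repeat gene, was the scarcest contributor to the score, at 66.2 against 10.8 CPM and 49.6 against 4.24 CPM. The 7 log2 ratios of hypoxic over other nuclei ran from 2.15 (Plod2) to 2.79 (Ero1l) in Sun1_WT and from 2.52 (Plod2) to 3.55 (Ankrd37) in Sun1_KO.

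Several score genes were seen together in most hypoxic nuclei, though 1 gene made over 50% of the score in many: Ero1l did so in 36.4% of them in Sun1_WT and 31.9% in Sun1_KO. After each nucleus was thinned to 3000 UMIs, the hypoxic nuclei held a median of 4 of the 7 genes and the other nuclei 1, in both libraries. At least 3 of the 7 were seen in 79.6% of hypoxic and 9.21% of other Sun1_WT nuclei, and in 77.3% and 3.97% in Sun1_KO. The rule chose nuclei by the sum of these same 7 genes, so these differences follow in large part from it. Thinning left out 8 and 65 nuclei in Sun1_WT and 9 and 65 in Sun1_KO, and without it the hypoxic Sun1_WT nuclei held a median of 6. Each gene was then set against the top 15% chosen by the other 6, which left its own counts out of the choice. The log2 ratios ran from 1.98 (Plod2) to 2.61 (P4ha2) in Sun1_WT and from 2.42 (Plod2) to 3.45 (Ankrd37) in Sun1_KO. For Ero1l they were 2.25 and 2.68.

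The score is a range with no gap at the threshold. The lowest score inside was 13.64 per 10000 and the highest outside 13.58, both in Sun1_WT. Within 10% of the threshold lay 51 Sun1_WT and 10 Sun1_KO nuclei below it and 42 and 16 above it. The median score over all gated nuclei was 4.57 in Sun1_WT and 2.48 in Sun1_KO, and no score gene was seen in 110 and 128 nuclei.

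**Figure D1:**
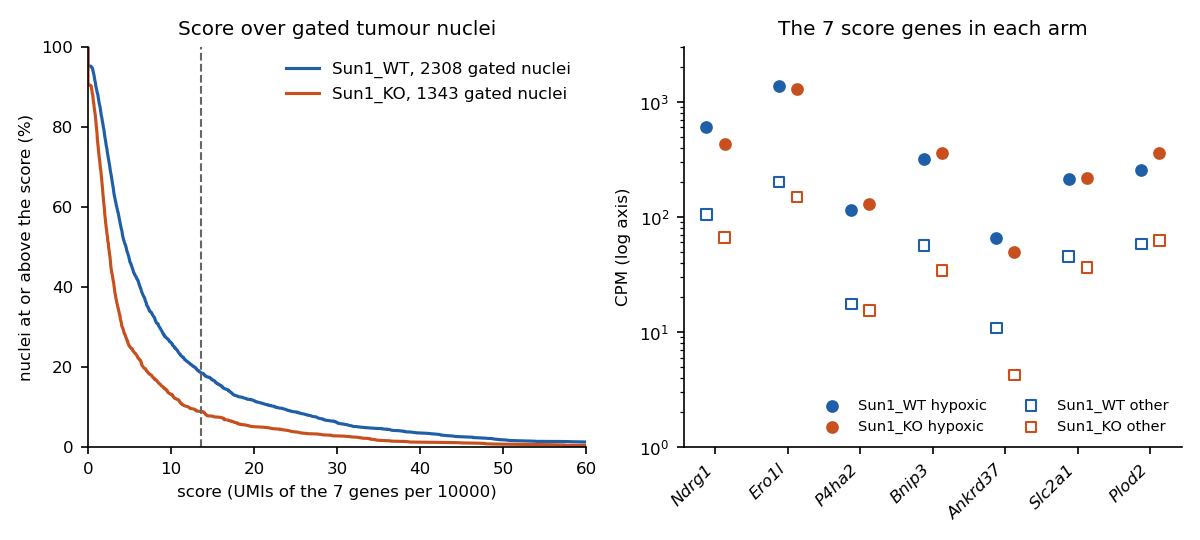
Left, share of gated nuclei (%, y axis) at or above each score (UMIs of the 7 genes per 10000, x axis) in Sun1_WT and Sun1_KO, with the threshold dashed at 13.6: the Sun1_KO curve lies below the Sun1_WT curve there and over most of the range drawn. Right, summed level of each score gene in CPM (log axis) in hypoxic (filled circles) and other nuclei (open squares) of each library: every filled symbol lies above the open ones of its gene.

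Sun1_KO held fewer hypoxic nuclei. They were 18.6% (17.0 to 20.2) of gated nuclei in Sun1_WT and 8.86% (7.40 to 10.5) in Sun1_KO, a ratio of 0.477 (0.386 to 0.585). The plot of scores shows the Sun1_KO curve below that of Sun1_WT at the threshold and at the median. Among the hypoxic nuclei the score itself was alike, with medians of 23.9 and 23.2 and highest values of 116 and 119. The threshold was common to both libraries and bounds these scores from below, so alike medians follow in part from the rule. With 1 library each, genotype cannot be told apart from tumour or library.

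The hypoxia response genes outside the score followed it. This list of 37 genes holds none of the 7, although it comes from the same nuclei. A gene was compared where its expected count was at least 50 in the smaller arm, and called at a ratio of at least 1.5-fold. The expected count was taken at the rate of both arms pooled, so counts in hypoxic nuclei helped a gene pass. Over all 6322 genes compared in both libraries, 103 (1.63%) were higher and 258 (4.08%) lower in hypoxic nuclei of both, none was called in opposite directions, and the medians were -0.10 in each. Of the 37 hypoxia response genes, 17 passed the count minimum in both libraries. Of these, 11 were higher in both and none was lower, with medians of 1.13 in Sun1_WT and 1.49 in Sun1_KO. Ccng2, with 137 hypoxic and 540 other UMIs in Sun1_KO, would have missed the minimum there at the rate of the other nuclei alone. At that rate 6323 genes in all would have been compared in both libraries. Of the 7 score genes 5 passed the minimum in both, and P4ha2 and Ankrd37 were under it in Sun1_KO. In Sun1_WT alone, 19 of 28 compared genes were higher and 1 lower, where 2.67% and 8.34% of all genes were. In Sun1_KO alone, 13 of 17 were higher, where 2.69% and 8.41% of all genes were higher and lower.

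The oxygen sensors were uneven. Egln1, the prolyl hydroxylase PHD2 and itself a target of the response, stood at 301 against 113 CPM in Sun1_WT and 309.9 against 91.97 CPM in Sun1_KO, log2 ratios of 1.42 and 1.75. Hif1a RNA was level, at 156 and 153 CPM in Sun1_WT and 151 and 152 CPM in Sun1_KO. Arnt, its partner, had ratios of 0.19 and 0.13. Epas1 was near 0, with 2 and 5 UMIs in the hypoxic nuclei of Sun1_WT and Sun1_KO. Vhl, compared in Sun1_WT alone, had a ratio of 0.78 there.

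Vegfa, the main growth factor for blood vessels, stood at 253 against 116 CPM in Sun1_WT and 335 against 124 CPM in Sun1_KO, ratios of 1.13 and 1.43. Car9, a carbonic anhydrase of the cell surface that acidifies the outside of the cell, was under the count minimum, with 179 and 97 UMIs in Sun1_WT and 158 and 139 in Sun1_KO. These made 25.8 against 2.89 CPM and 95.6 against 6.77 CPM. It was seen in 82 of 429 hypoxic and 70 of 1879 other Sun1_WT nuclei, and in 56 of 119 and 71 of 1224 in Sun1_KO. Adm, which encodes the vessel peptide adrenomedullin, had 7 and 1 UMIs in the hypoxic nuclei and Egln3 3 and 1, too few to read.

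Of the 11 hypoxia response genes higher in both libraries, several act at mitochondria or in signalling. Fam162a and Higd1a, small mitochondrial proteins of the low-oxygen response, had ratios of 1.74 and 1.70 in Sun1_WT and 2.56 and 2.41 in Sun1_KO. Bnip3l, a mitophagy receptor related to Bnip3, had 1.30 and 1.53. In the list of mitophagy and autophagy genes, 1 of 10 compared in both libraries was higher in both, the autophagy receptor Sqstm1 (0.69 and 0.86). None was lower, beside 1.63% higher and 4.08% lower over all genes compared. Mxi1, an antagonist of MYC, had 1.62 and 1.71. Ccng2, a cyclin linked to arrest, had 1.59 and 1.66, and Kdm3a, a histone demethylase that needs oxygen, 1.12 and 1.49. The 6 compared in both libraries and not called in both were Zfp395, Cited2, Insig2, Wsb1, Kdm4c and Pam, and the last 4 had ratios between 0.03 and 0.47 in both libraries.

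Gbe1, the glycogen branching enzyme, stood at 260 against 67.6 CPM in Sun1_WT and 425 against 89.8 CPM in Sun1_KO, ratios of 1.94 and 2.24. Gys1, glycogen synthase of muscle type, had 1.54 and 1.80. Pgm1, which joins glycogen to glycolysis, had 1.79 and 2.24, whereas its relative Pgm2 had -0.01 and -0.47.

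Nearly the whole glycolytic path was higher. Of 24 glycolysis genes, 18 were compared in both libraries. Of these, 16 were higher in both and none was lower, beside 1.63% and 4.08% of all genes compared. The medians were 0.98 and 1.41. Eno2 (270 and 612 UMIs in hypoxic and other Sun1_KO nuclei) and Pgm1 (209 and 551) passed the count minimum there through their hypoxic counts. At the rate of the other nuclei alone they would have missed it. In path order, Hk2 (hexokinase) had 1.49 and 1.77, Gpi1 1.14 and 1.51, Pfkl 1.06 and 1.58, Aldoa 1.06 and 1.499, Tpi1 0.84 and 1.33, and Gapdh 0.64 and 1.04. Pgk1 stood at 1402 against 565 CPM in Sun1_WT and 1348 against 353 CPM in Sun1_KO, and Ldha, which makes lactate, at 1070 against 569.7 CPM and 1002 against 405 CPM. Eno2, the neuronal enolase, had ratios of 2.09 and 2.46, beside 0.74 and 1.13 for Eno1. Pdk1, the kinase that closes the entry of pyruvate into mitochondria, had 1.87 and 2.37. Pdk3 (0.50 and 0.30) and Pgm2 were the 2 compared genes not called, and Slc2a3, the transporter GLUT3, had 3 and 0 UMIs in hypoxic nuclei.

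The plot of RNA ratios places these groups. Nuclear genes of the respiratory chain were not higher: 0 of 30 were called in both libraries in either direction, with medians of -0.21 and -0.08. Of all genes compared, 1.63% were higher and 4.08% lower in both. Of 37 cytosolic ribosomal protein genes none was called. All 37 lay above 0 in both libraries, beside 1541 of all 6322 genes compared, with medians of 0.27 and 0.28. In another setting, a gene's UMIs in the nucleus holding most of them were taken out of each arm. Rpl41 (-0.06) and Rplp0 (-0.03) were then below 0 in Sun1_KO. That nucleus stayed in the arm totals, so values this near 0 do not settle the sign.

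**Figure D2:**
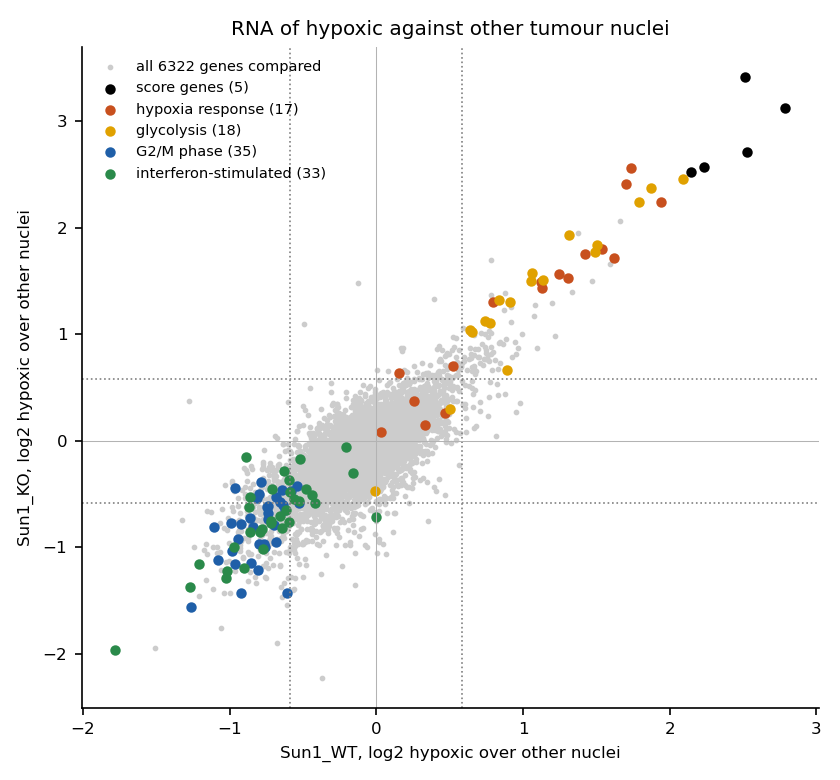
Each point is 1 of 6322 genes, with the log2 ratio of hypoxic over other nuclei in Sun1_WT (x axis) and Sun1_KO (y axis); dotted lines mark 1.5-fold and colours mark lists. The 5 score genes and most of the 17 hypoxia response and 18 glycolysis genes lie to the upper right, and the 35 G2/M and 33 interferon-stimulated genes lie below 0 on both axes.

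Collagen-modifying enzymes were split. Beside P4ha2 and Plod2 of the score, P4ha1 (1.25 and 1.57) and Plod1 (1.38 and 1.95) were higher in both libraries, and these 2 were all of the 9 compared genes that were. Loxl3 was lower (-0.60 and -0.80). Of all genes compared, 1.63% were higher and 4.08% lower in both. Lox, a collagen cross-linking oxidase, was under the minimum with 19 and 61 UMIs in hypoxic Sun1_WT and Sun1_KO nuclei. The collagens themselves were not called in both libraries in any of 9 cases. Col1a1 was at -0.49 in Sun1_WT and 1.097 in Sun1_KO, but 54.4% of its UMIs in hypoxic Sun1_KO nuclei came from 1 nucleus. Without the Col1a1 UMIs of the nucleus with most of them in each arm, the Sun1_KO value was 0.10.

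Stress genes of the endoplasmic reticulum moved little beside Ero1l. Of 22 genes compared in both libraries, Ddit3 (CHOP, 0.92 and 0.79) and Trib3 (0.71 and 1.02) were higher in both, and none was lower. Of all genes compared, 1.63% were higher and 4.08% lower in both. Hspa5, the chaperone BiP, had 0.21 and 0.59 and Atf4 0.07 and -0.07.

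Genes of cell division were lower in the hypoxic nuclei. Of 35 G2/M genes, all compared in both libraries, 25 were lower in both and none was higher. Of all genes compared, 4.08% were lower and 1.63% higher in both. All 35 G2/M genes lay below 0 in both, beside 3358 of all 6322 genes compared, with medians of -0.78 and -0.77. Plk1, a kinase of mitotic entry, stood at 21.2 against 51.0 CPM in Sun1_WT and 15.1 against 45.4 CPM in Sun1_KO. Top2a had -0.99 and -0.77, Mki67 -0.75 and -0.62, and Ccnb1 -0.86 and -1.15. Of 28 S-phase genes compared in both, 15 were lower in both and none was higher, with medians of -0.70 and -0.64. Rrm2, a subunit of ribonucleotide reductase, had -0.94 and -1.01, while E2f1 was level at -0.04 and 0.22. Lmnb1 (-0.76 and -0.63), a lamin, was the 1 nuclear envelope gene of 18 that was lower in both, beside 4.08% of all genes compared.

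Interferon-stimulated genes were lower too. Of 33 compared in both libraries, 18 were lower in both and none was higher, beside 4.08% and 1.63% of all genes compared. All 33 lay below 0 in both, beside 3358 of all 6322 genes compared, with medians of -0.71 and -0.70. Iigp1, a guanosine triphosphatase of cell defence, stood at 226 against 544 CPM in Sun1_WT and 243 against 629.9 CPM in Sun1_KO. Its relatives Gbp2 (-1.02 and -1.23), Gbp7 (-1.03 and -1.28) and Gbp2b (-1.06 and -1.22) were lower by similar amounts, as was Ifi44l (-1.51 and -1.94). Cxcl10, a chemokine that draws T cells, stood at 68.9 and 62.4 CPM in the other nuclei of Sun1_WT and Sun1_KO, with ratios of -1.78 and -1.96. Of its UMIs in hypoxic Sun1_WT nuclei, 36.7% came from 1 nucleus. Without the Cxcl10 UMIs of the nucleus with most of them in each arm, the Sun1_WT ratio was -2.36. Of 19 MHC class 1 presentation genes, 5 were lower in both, beside 4.08% of all genes compared. Among the 5 were Tapbp (-0.92 and -0.94) and Psmb10 (-0.91 and -1.10). The heavy chain H2-D1 (-0.12 and -0.11) and B2m (-0.08 and -0.16) were near the median of all genes. Fst, which encodes the activin antagonist follistatin, was lower at -0.999 and -1.42.

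Summed levels were also followed along the score. From the lowest scores (percentiles 0 to 25) to the top 5 percentiles, the summed hypoxia response list went from 1858 to 5914 CPM in Sun1_WT and from 1844 to 6941 CPM in Sun1_KO. Glycolysis went from 3566 to 11062 CPM and from 2742 to 10359 CPM. G2/M genes went from 6452 to 3028 CPM in Sun1_WT, with 4024 CPM already reached in percentiles 70 to 85, and from 5626 to 1013 CPM in Sun1_KO. The Sun1_KO course was not even: the levels were 3649.7 CPM in percentiles 50 to 70, 3887 CPM in 70 to 85 and 4002 CPM in 85 to 90, which are inside the hypoxic nuclei. The last value rests on 37 nuclei, with 3076 CPM in the 40 nuclei of the step before. Interferon-stimulated genes went from 6366 to 2560.5 CPM and from 6137 to 2751 CPM. Median depth moved as well, at 14714 and 15284.5 UMIs in the lowest and highest step of Sun1_WT and 14928 and 11386 in Sun1_KO, and its part was not tested. Over nuclei thinned to the same depth, the rank correlation of score and list was 0.487 (hypoxia response), 0.546 (glycolysis), -0.201 (G2/M) and -0.318 (interferon) over 2235 Sun1_WT nuclei. Over 1269 Sun1_KO nuclei it was 0.349, 0.360, -0.154 and -0.252. The points share 1 library and are given as a description.

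**Figure D3:**
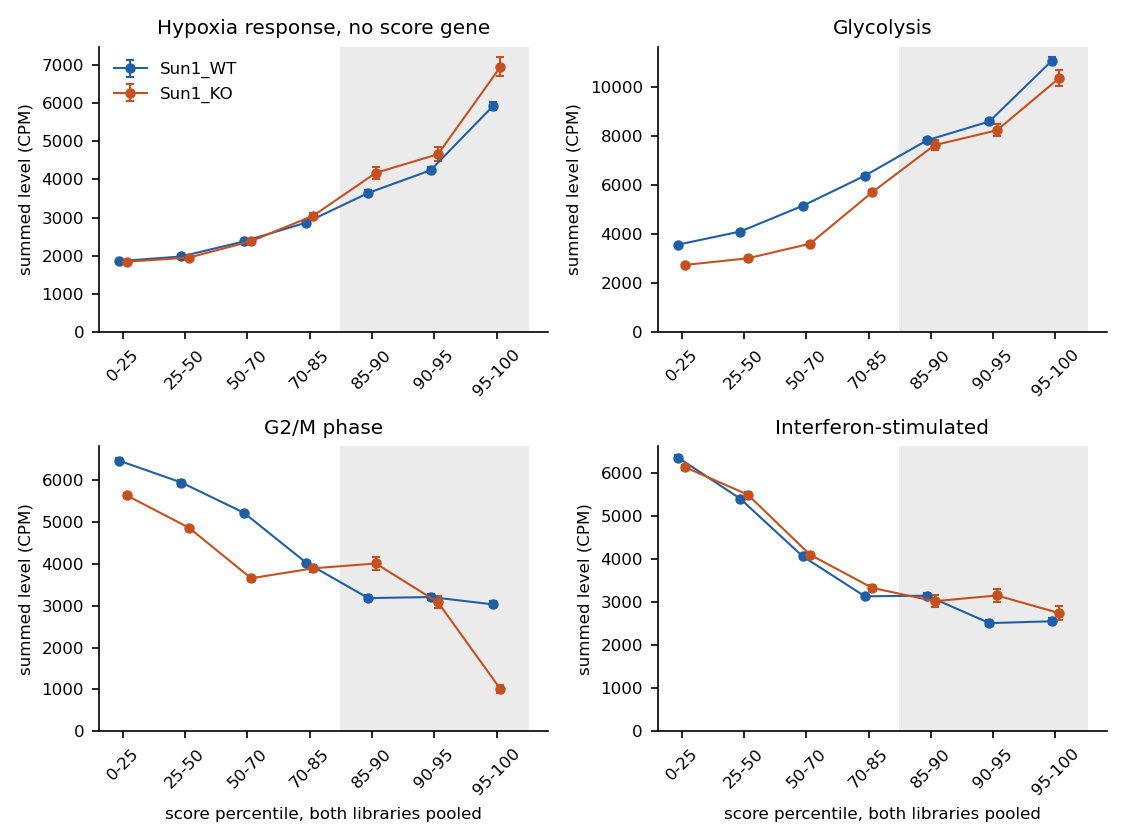
Summed level of 4 gene lists (CPM, y axis) against the percentile of the score over both libraries (x axis), by library, with 95% Poisson intervals; the shaded steps are the hypoxic nuclei. The upper lists climb to 5914 and 6941 CPM (hypoxia response) and 11062 and 10359 CPM (glycolysis), and the lower lists end below where they begin, with a rise in Sun1_KO G2/M genes from 3649.7 to 4002 CPM between percentiles 50 and 90.

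Between genotypes, no score gene differed by 1.5-fold inside the hypoxic nuclei. Log2 Sun1_KO over Sun1_WT was -0.49 for Ndrg1, -0.10 for Ero1l, 0.18 for P4ha2, 0.18 for Bnip3, -0.41 for Ankrd37, 0.03 for Slc2a1 and 0.48 for Plod2 there. In other nuclei the same genes were at -0.67, -0.43, -0.18, -0.72, -1.35, -0.31 and 0.10, and 3 were at least 1.5-fold lower. Plod2 differed more inside (0.48) than outside (0.10), and the threshold was common to both libraries, so the rule bounds the score alike in both. Of the 23 other hypoxia response genes compared, 4 were higher and 1 lower in Sun1_KO within hypoxic nuclei, beside 8.06% and 8.47% of all genes. Their median was 0.11, equal to the median of all 5879 genes compared (0.11). For 19 glycolysis genes the median was -0.09 in hypoxic and -0.31 in other nuclei.

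Within the hypoxic nuclei, 474 of the 5879 genes (8.06%) had a genotype ratio of 1.5-fold or more upward in Sun1_KO and 498 (8.47%) downward. Under TMM scaling these were 142 and 862, so the split between higher and lower rests on the scaling. Over the same 5879 genes, 303 were higher and 478 lower in the other nuclei, where more genes could be compared in all (12092, of which 10.1% were higher and 9.32% lower). Of the 5879, 201 were higher and 337 lower in both arms and none was called in opposite directions. Car9 was higher in Sun1_KO by 1.89 (1.57 to 2.21) in hypoxic and 1.23 in other nuclei. Ift81, a gene of transport in cilia, stood at 42.6 CPM in hypoxic Sun1_WT and 234 CPM in hypoxic Sun1_KO nuclei, ratios of 2.46 in hypoxic and 2.90 in other nuclei. Ccn1, a matrix protein and target of YAP, had 2.04 and 1.53, and Lars2, a mitochondrial leucyl tRNA synthetase, 1.33 and 1.37.

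A pair of heat shock genes, named for the difference of their genotype ratios or for their size, differed between arms. Hsph1, a chaperone of the HSP110 family, stood at 223 CPM in hypoxic and 169 CPM in other Sun1_WT nuclei and at 635 and 253 CPM in Sun1_KO. Its genotype ratio was 1.51 (1.40 to 1.63) in hypoxic and 0.58 in other nuclei, a difference of 0.93 (0.81 to 1.06). Dnajb1, an HSP40 co-chaperone, stood at 87.3 CPM in hypoxic Sun1_WT and 248 CPM in hypoxic Sun1_KO nuclei, and its genotype ratios differed by 0.91. The nucleus with most UMIs held 6.96% of Hsph1 UMIs in hypoxic Sun1_KO nuclei. Such a difference of at least 1.5-fold between arms was seen for 34 genes upward and 55 downward of 5610.

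The genotype ratio of Col1a1, a chain of type I collagen, was 1.70 in hypoxic and 0.12 in other nuclei. Without the Col1a1 UMIs of the nucleus with most of them in each arm of each library, the first value was 0.87. Cd74, the MHC class 2 invariant chain and a leukocyte marker, was at 0.57 and -1.08, on 48.4 CPM in hypoxic Sun1_KO nuclei. Dnajc3, a chaperone partner of BiP, differed by 0.95. Without its UMIs of the nucleus with most of them in each arm of each library, it differed by 0.66.

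Among the genes lower in Sun1_KO was Tmlhe, the first enzyme of carnitine synthesis, with 300 UMIs in hypoxic Sun1_WT nuclei and 2 UMIs, both in 1 nucleus, in hypoxic Sun1_KO nuclei. Its genotype ratio was -4.84 (-8.21 to -3.29) on the log2 scale, and -5.26 in other nuclei. Mmp3, the matrix protease stromelysin, stood at 50.2 CPM in hypoxic and 64.9 CPM in other Sun1_WT nuclei and at 7.87 and 38.1 CPM in Sun1_KO. Its genotype ratio was -2.62 (-3.60 to -1.88) in hypoxic and -0.77 in other nuclei, on 8 hypoxic Sun1_KO nuclei with a UMI. Fst (-2.02 and -1.60), Atp6ap2 (-2.17 and -1.47), a subunit partner of the proton pump, and Plp2 (-1.78 in each) were lower in both arms. Atp6ap2 and Plp2 lie on chromosome X. Within hypoxic nuclei, 21.4% of its 182 genes compared were lower in Sun1_KO, beside 8.47% of all genes. The share higher in Sun1_KO was 10.4% there, beside 8.06% of all genes. On chromosome 3, which holds Ccn1, 18.2% of 324 genes compared were higher and 6.79% lower in Sun1_KO within hypoxic nuclei. Arhgap6 (-1.04 and 0.08), Cp (ceruloplasmin, -1.13 and 0.08) and Mitf (-0.87 and 0.06) were lower in Sun1_KO within hypoxic nuclei and level between genotypes in the others.

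**Figure D4:**
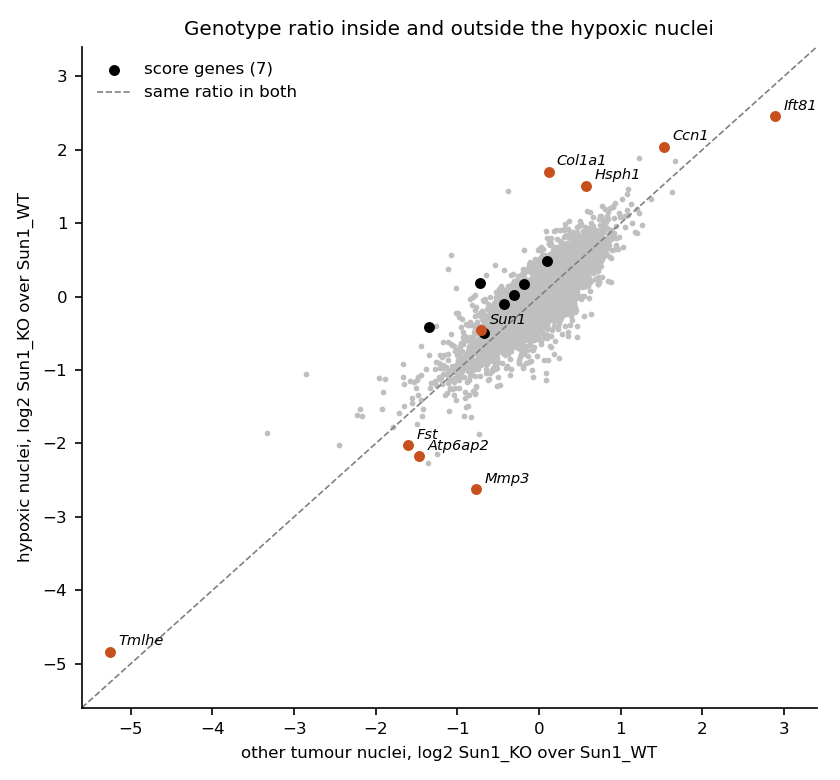
Log2 Sun1_KO over Sun1_WT of 5879 genes in other nuclei (x axis) and hypoxic nuclei (y axis), with score genes in black, named genes in orange and the line of equal ratios dashed. Most points follow the line; Col1a1 and Hsph1 lie above it and Mmp3 below it.

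Accessibility at the gene starts came from the same barcodes and was not used to choose them. Counts are per peak, merged into 113803 regions found in both libraries, and given as CPM of the counts in regions. Most deposited values are even (75.5% in Sun1_WT and a like share in Sun1_KO), so that 1 fragment often adds 2 counts and the intervals are too narrow. A start region lies within 1 kb of the RefSeq start, or of either gene end where the strand was not in the table used. Over the start regions of 12046 genes, 5 (0.0415%) were at least 1.5-fold more open and 20 (0.166%) less open in hypoxic nuclei of both libraries, 29.5% were above 0 in both and 28.9% below, and the medians were 0.00.

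Start regions of 5 of the 6 measured score genes were more open in both libraries, by small amounts. The Ero1l region, on chr14:45318197-45319112, stood at 56.9 against 43.2 CPM in Sun1_WT and 52.8 against 40.4 in Sun1_KO, log2 ratios of 0.40 (0.32 to 0.47) and 0.39 (0.25 to 0.52). It holds the promoter printed above with its match 63 bases before the start. P4ha2 had 0.54 (0.44 to 0.64) and 0.42 (0.25 to 0.59), Slc2a1 0.30 (0.23 to 0.38) and 0.28 (0.15 to 0.40). Bnip3 had 0.26 and 0.28 and Ankrd37 0.19 and 0.29. Ndrg1 was less open, at -0.26 and -0.29, over 2 regions at its chr15:66969641 end. Of these, chr15:66969410-66970263 was at -0.01 and -0.13 and chr15:66968265-66969048 at -0.82 and -0.58. No region lay within 1 kb of the ends of Plod2. Inside the gene, chr9:92541834-92542664 was at 0.22 in Sun1_WT and 0.35 in Sun1_KO. It stood at 39.7 against 34.2 CPM and 42.0 against 33.1 CPM.

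Regions off the starts varied. Before Slc2a1, chr4:119105462-119106377 was at 0.70 and 0.50 and chr4:119104477-119105171 at 0.69 and 0.67, while chr4:119125469-119126364 inside the gene was at -0.46 and -0.72. Near Ankrd37, chr8:45997957-45998618 was at 1.30 and 1.25, with 45 counts in hypoxic Sun1_KO nuclei, under the minimum there. Upstream of Ero1l, chr14:45325157-45326071 was at 0.41 and 0.66. Others were near 0, such as chr14:45329308-45330247 near Ero1l (0.01 and 0.11) and chr4:119121009-119121921 near Slc2a1 (-0.02 and -0.12). These regions were picked after their values were seen.

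Among the other hypoxia response genes, 18 of 29 start regions were above 0 in both libraries and 3 below, with medians of 0.07 and 0.07. Fam162a had 0.29 and 0.43, Hilpda, a lipid droplet protein, 0.18 and 0.28, and Bhlhe40, a clock-related repressor, 0.15 and 0.17. The start of Car9, chr4:43506425-43507342, was at 1.72 and 1.77, but on 111 and 60 counts in hypoxic nuclei, under the minimum. Of the glycolysis genes, 12 of 21 were above 0 in both and 4 below, with medians of 0.13 and 0.10. Pgm1, at 35.4 against 22.5 CPM in Sun1_WT and 35.5 against 22.2 in Sun1_KO, was the 1 glycolysis gene past 1.5-fold in both (0.65 and 0.68). Hk2 (-0.01 and -0.11) and Ldha (-0.03 and -0.03), both higher in RNA, were not more open at their starts.

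Starts were also compared for the genes called by RNA. Of the 98 compared genes with higher RNA in both libraries, 61 (62.2%) had starts above 0 in both, and of 244 with lower RNA, 122 (50%) had starts below 0 in both, beside 29.9% above and 28.0% below over all 5998 genes compared in both readouts. For interferon-stimulated genes 28 of 38 were below 0 in both and 3 above, with medians of -0.13 and -0.22, led by Iigp1 (-0.70 and -0.53) and Gbp7 (-0.51 and -0.48). G2/M genes differed less, with medians of -0.05 and -0.03 and 14 of 33 below 0 in both.

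**Figure D5:**
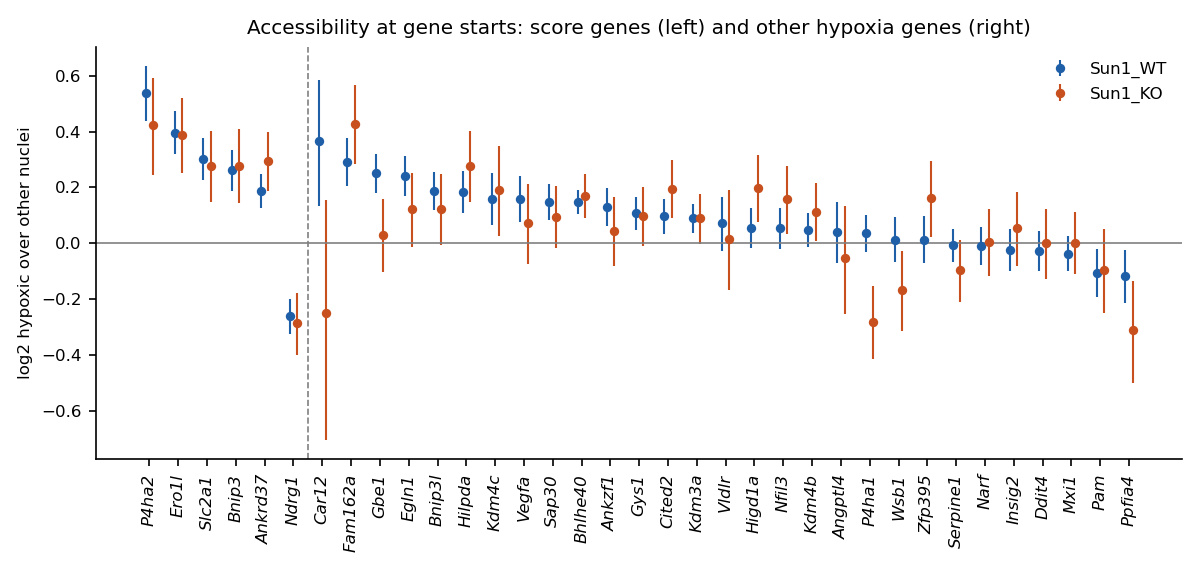
Log2 accessibility of hypoxic over other nuclei (y axis) at the starts of 6 score genes (left of the dashed line) and 29 other hypoxia response genes (x axis), in Sun1_WT and Sun1_KO, with 95% counting intervals. The 5 score genes other than Ndrg1 lie above 0 in both libraries, between 0.19 and 0.54.

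The 2 forms of the core sequence were counted apart. ACGTG was present in 41.3% of 46 promoters of the other hypoxia response genes, 50% of 36 glycolysis promoters and 38.4% of 112 promoters of genes with higher RNA in both libraries. It was present in 52 of 226 of those with lower RNA, 25% of G2/M promoters and 9.09% of interferon promoters, beside 26.8% over the genes compared. GCGTG, the other form, varied less: it was in 56.5% of the other hypoxia response promoters, 50% of glycolysis, 56.25% of G2/M and 39.4% of interferon promoters, beside 52.5% over the genes compared. It was in 56.25% of promoters of genes with higher RNA and 50.4% of those with lower RNA. In Car9 the match lay 18 bases before the start.

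Over single regions, 280 of 42382 (0.661%) were at least 1.5-fold more open and 411 (0.97%) less open in both libraries. In Sun1_WT alone 3.8% were more and 4.82% less open, and in Sun1_KO alone 2.55% and 4.82%. With counts reduced to open or closed in each nucleus these were 0 and 3, over the 19339 regions that could then be compared. The cause of this fall was not tested. Of the more open regions, chr11:3580231-3581058 lay 40939 bases from Smtn, in no gene, at 1.42 and 1.28, and chr13:59604180-59605113 lay inside Naa35, at 1.06 and 1.32. Of the less open regions, chr8:110760855-110761667 lay inside Il34 and at the start of Gm39250. Il34 was itself at 0.29 and 0.19 in RNA, and it encodes a ligand of the macrophage receptor CSF1R. The region was at -1.21 and -1.42.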

How the data were processed

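RNA and open chromatin were measured in the same nuclei, in 1 library of each kind per genotype. The authors deposited whole-number UMI counts per gene and counts per peak, with peaks called in each library. Per the submitters' processing notes, the tools included Cell Ranger ARC, Cell Ranger, FastQC, Signac and Seurat, and the build was mm10. No tool version was stated there. The authors' deposited DESeq2 table was not used here.

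Members and gene lists were chosen with earlier results of these data known. Counts were summed over the nuclei of each library and arm and given as CPM of the total without mitochondrial genes. Log2 ratios carry a pseudocount of 0.5 and exact conditional binomial intervals, shares have exact Clopper-Pearson intervals and sums exact Poisson intervals, all at 95%. A gene was compared at an expected count of at least 50 in the smaller arm, at the rate of both arms pooled, and called at 1.5-fold. No replicate existed and no test was run. Genes were named by the bound nearest 1: 12 higher and 8 lower in hypoxic nuclei, 8 each way between genotypes, 4 each way for the difference of ratios, the 3 highest and 2 lowest of each list, and 5 regions each way. A few others, and the regions near score genes, were chosen after their values were seen. Peaks of both libraries that overlapped by at least 1 base were merged. The libraries held 53707675 UMIs (Sun1_WT, median 13789 per nucleus) and 35471291 (Sun1_KO, 11548.5). Alternatives were other scalings (TMM from edgeR 4.0.16 in R 4.3.3, median ratio, total with mitochondrial genes), count minimums, thinning, other score cuts and binarised accessibility. In 1 more, a gene's UMIs in the nucleus with most of them were left out of each arm, with arm totals kept. Python 3.11.15, numpy 2.4.6, scipy 1.17.1, pandas 2.3.3 and matplotlib 3.10.9 were used, and the scripts were tested on simulated data.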

Additional observations from a re-analysis of the deposited data

How the results depend on the processing

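No paired analysis was possible because each genotype has 1 library of each kind. The ratio of hypoxic shares kept its size under every alternative run, while the shares in Sun1_WT and Sun1_KO were 24.1% and 11.3% after thinning to 3000 UMIs, 12.5% and 5.73% for the top 10%, and 24.7% and 12.1% for the top 20%. Genes higher in hypoxic nuclei of both libraries (103) numbered 68 at an expected count of at least 100, 165 at 20 and 29 after thinning; in Sun1_KO (170) 100, 313 and 53; in Sun1_WT (269) 127 after thinning. Genes lower in both (258) numbered 137, 398 and 37, and 155 under median-ratio scaling; in Sun1_KO (532) 244, 997 and 93; in Sun1_WT (840) 397 after thinning and 536 under median-ratio scaling. Fewer genes could be compared in both libraries after thinning (1289) and at 100 (3911) than in all (6322), and more at 20 (9056). In Sun1_WT alone 4939 were compared after thinning, against 10074 in all. Between genotypes in hypoxic nuclei, 474 higher and 498 lower became 142 and 862 under TMM, 168 and 790 under median-ratio scaling, 245 and 278 at 100, 869 and 824 at 20, and 99 and 129 after thinning; the higher ones numbered 312 with mitochondrial genes in the total and 754 with the top 15% taken within each library. Genes compared between genotypes numbered 5879 under each scaling, 3541 at 100, 8704 at 20, 1128 after thinning and 7966 within each library. The cause of the shifts with scaling was not tested. Regions more open in Sun1_WT, Sun1_KO and both (2968, 1079, 280) numbered 580, 0 and 0 when binarised and 359, 10 and 5 at an expected count of 200, and for the top 10% 556 in Sun1_KO and 100 in both. Less open ones (3759, 2044, 411) numbered 920, 33 and 3, and 511, 81 and 8. Regions compared in both libraries numbered 42382 in the main setting, 19339 when binarised, 14088 at 200 and 30240 for the top 10%. In Sun1_WT alone they were 78006, 54919, 37547 and 64971. Each gene's UMIs in the nucleus with most of them were also taken out of each arm, with the arm totals kept. With this 1 called value changed sign: Tnc, hypoxic over other in Sun1_KO, was -0.67. Uncalled values near 0 also did, among them Col3a1 (-0.62) and Dcn (-0.48) in Sun1_KO. With 119 hypoxic Sun1_KO nuclei, depth limited low genes such as Car9, P4ha2 and Ankrd37 there.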

Other observations

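Some genes outside the groups described above also differed in the hypoxic nuclei. Mif, a cytokine that binds CD74, stood at 764 against 365 CPM in Sun1_WT and 763 against 262 CPM in Sun1_KO, log2 ratios of 1.07 and 1.54. Lgals3, which encodes galectin-3, had 0.70 and 0.78. Fosb, a component of the AP-1 transcription factor, had 0.95 and 0.82. It was the 1 gene of 13 in its list that was higher in both libraries, beside 1.63% of all genes compared. Of 19 genes of cholesterol and fatty acid synthesis compared in both, Stard4 (-0.82 and -0.75) and Fasn (-0.82 and -0.84) were lower in both and none was higher. The medians were -0.46 and -0.39, and 4.08% of all genes compared were lower in both. Between genotypes, 27 of 37 ribosomal protein genes were lower in hypoxic Sun1_KO nuclei and 26 in other nuclei, with medians of -0.76 and -0.81. Of all 5879 genes compared, 498 (8.47%) were lower in hypoxic and 478 in other nuclei.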
